A study of Monascus purpureus with 6 samples.

Results

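The GABA shunt is a short side route of the TCA cycle, and its 3 enzymes were followed here in mycelia of *Monascus purpureus*, the fungus of red yeast rice. The members are the assembled transcripts (unigenes) whose KEGG annotation names glutamate decarboxylase, GABA transaminase (4-aminobutyrate aminotransferase or transaminase) or succinate-semialdehyde dehydrogenase (SSADH), with FPKM listed and a mean of at least 0.1 over the 6 libraries. FPKM counts fragments per kilobase of unigene and per 1000000 fragments of the library, so that levels of unigenes of different length can be set side by side. The annotation named 47 unigenes, and FPKM was listed for 46 of them out of 20581 with FPKM and 24261 assembled in all. The exception was *TRINITY_DN10272_c0_g1_i1-C2A*, with a length of 201 bases. No named unigene with FPKM listed fell below the minimum level. The members nearest to it were *TRINITY_DN4444_c0_g1_i1-S1A*, with a mean of 0.372 FPKM, and *TRINITY_DN8185_c0_g1_i1-C2A*, with 0.483 FPKM. The rule itself used the annotation and the mean level.

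All libraries came from wild-type *M. purpureus* MP2022, a newly isolated strain, grown in fermentation medium at the same temperature and shaking speed and sampled on day 1. The control group (3 libraries) had no taurine, and the taurine group (3 libraries) was described by the labels as pretreated with it. The labels do not give the concentration, which the study's methods state. The labels do not say whether replicates were separate cultures, so p-values below measure the spread between these libraries, which may be technical. The signs of fold change in the study's supplementary listings appear to run opposite to the names of the deposited columns, and the files do not settle which is right. Every direction below is that of the libraries named as taurine samples against those named as controls, and would turn if those names were exchanged. The spacing of low FPKM values put the depth at about 18000000 to 19000000 fragments per library, and FPKM summed to between 797244 and 865009 per library.

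Control replicate 2 stood apart from the other 5 libraries. Its correlation with them over all tested unigenes was 0.906 to 0.915, against 0.930 to 0.939 for the pairs without it. Of the 46 members, 15 (32.6%) had their highest value in control replicate 2 and 14 (30.4%) their lowest, against 28.4% and 29.1% of all tested unigenes. Among tested unigenes with a mean of at least 10 FPKM, 25.1% were highest and 50.7% lowest in control replicate 2. The most abundant GABA transaminase and SSADH unigenes were both lowest in that library. Values without that library are given beside the named members, sums and list medians whose direction it changed.

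In the shunt, glutamate decarboxylase removes a carboxyl group from glutamate with the help of pyridoxal phosphate and releases GABA (gamma-aminobutyrate). GABA transaminase moves the amino group of GABA to an acceptor and leaves succinate semialdehyde, which SSADH oxidizes to succinate. The route thus reaches succinate without 2-oxoglutarate dehydrogenase and succinyl-CoA synthetase, and in filamentous fungi it is known for the use of GABA as a nitrogen source and for a link to stress and development. KEGG also places glutamate decarboxylase in taurine and hypotaurine metabolism, since related decarboxylases act on sulfinic and sulfonic amino acids.

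The annotation was checked against the Pfam domain that each enzyme carries, and for many members that domain was not listed. KEGG named 9 unigenes as glutamate decarboxylase, 25 as GABA transaminase and 12 as SSADH. The pyridoxal-dependent decarboxylase domain was listed for 8 of the 9, the class-III aminotransferase domain for only 6 of the 25, and the aldehyde dehydrogenase domain for 7 of the 12. The 19 unigenes named as GABA transaminase without its domain had no domain listed (8 unigenes) or another one, such as an NAD-dependent epimerase or NAD(P)H-binding domain, a semialdehyde dehydrogenase NAD-binding domain or a domain of a phage terminase. Such unigenes are called here by their KEGG name with the words "without the domain". Of the 25 members without the domain, 8 were shorter than 500 bases, and a missing domain does not by itself show another protein. The short SSADH pieces *TRINITY_DN6461_c0_g1_i1-S3A* and *TRINITY_DN5383_c0_g1_i1-S2A* share their NR hit with *TRINITY_DN5383_c1_g1_i1-S2A*, which carries the domain. The 21 members with the domain are described first. A further sign of mixed annotation is that 11 of the 46 members also carried a second KEGG ortholog.

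The 46 members had 25 different best hits in the NR protein database, and 45 of the 46 hits were to *M. purpureus* itself. Several unigenes thus stand for the same protein and share fragments, as isoforms or as pieces of a transcript. Lengths ran from 210 to 3843 bases, with 11 members shorter than 500 bases. The mean level was at least 10 FPKM for 15 members and below 1 FPKM for 9, and 12 members were at 0 in at least 1 library.

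With taurine, the most abundant GABA transaminase and the most abundant SSADH unigene were higher in every library than in any control library, with log2 fold changes of 0.46 and 0.34, and a glutamate decarboxylase isoform was lower in every library. None of the 46 members passed an adjusted p of 0.05 with limma, where 8 of 20381 tested unigenes (0.0393%) did. At an unadjusted p under 0.05 there were 3 members, all higher with taurine (6.52% of the members), against 1.63% of all tested unigenes in that direction and 1.03% in the other. Groups without overlap were found for 3 members higher with taurine and for 1 lower, while they were found for 3.78% and 2.62% of all tested unigenes in these directions. With voom on estimated fragments 0 of the 38 members it could test passed the adjusted p, and 2 had an unadjusted p under 0.05. The median log2 fold change was 0.030 over the members and 0.022 over all tested unigenes. The counts are small, and nothing is read from them about the members as a list.

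**Figure D1:**
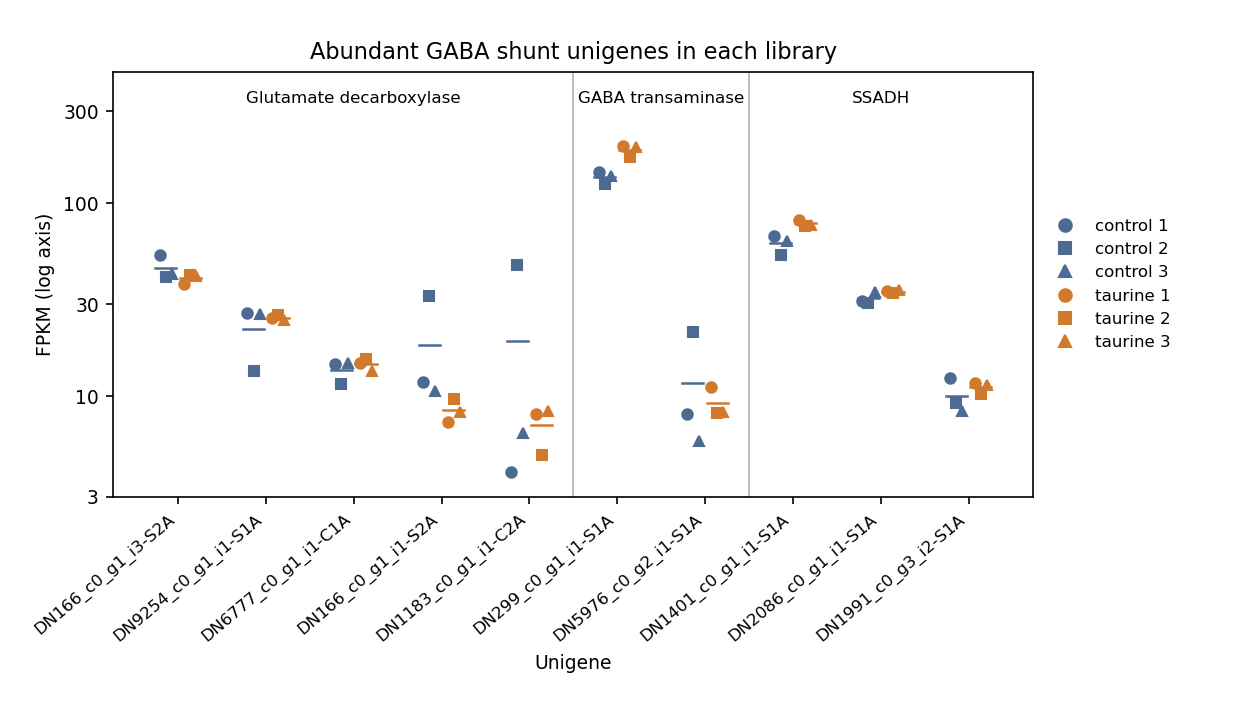
FPKM (log axis) of the 10 members with the Pfam domain and a mean of at least 10 FPKM, with a point for each library (blue, control; orange, taurine; marker shape, replicate number) and a line for the group mean. The taurine points of *DN299_c0_g1_i1-S1A* and *DN1401_c0_g1_i1-S1A* lie above all control points, while control replicate 2 (square) sets the control mean of *DN166_c0_g1_i1-S2A*, *DN1183_c0_g1_i1-C2A* and *DN5976_c0_g2_i1-S1A*.

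The main GABA transaminase unigene, *TRINITY_DN299_c0_g1_i1-S1A* (2107 bases), is also the one whose NR hit is named 4-aminobutyrate transaminase. Its level was 146.07, 126.59 and 139.34 FPKM in control replicates 1, 2 and 3, and 198.72, 173.42 and 196.71 FPKM in taurine replicates 1, 2 and 3. The lowest taurine library thus lay above the highest control library. The means were 137.3 ± 9.89 FPKM and 189.6 ± 14.1 FPKM (SD, n = 3 each), a ratio of 1.38. The log2 fold change of log2(FPKM + 1) was 0.46 ± 0.09 (SE) with a 95% confidence interval of 0.24 to 0.69. The unadjusted p of limma was 0.00209 and the adjusted p 0.907. The exact permutation test of the 6 libraries gave p = 0.1 (two-sided), the smallest that 3 against 3 libraries allow. Without control replicate 2 the log2 fold change was 0.41. This unigene was the most abundant member, above 96.5% of all tested unigenes. Cells with less RNA of a gene and fewer cells that make it cannot be told apart in such bulk samples.

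This unigene held most of the GABA transaminase RNA that carries the domain, from 80.1% of its summed FPKM in control replicate 2 to 92.6% in taurine replicate 3. The only other abundant unigene with the class-III aminotransferase domain was *TRINITY_DN5976_c0_g2_i1-S1A*, with 8.02, 21.37 and 5.84 FPKM in the control libraries and 11.14, 8.19 and 8.23 FPKM in the taurine libraries. Control replicate 2 was the high library there, and the groups overlapped. Its log2 fold change was -0.14 ± 0.43 (SE) with all libraries and 0.36 without control replicate 2, so the direction turned with that library. The remaining 4 unigenes with the domain had means of 0.713 to 4.69 FPKM and log2 fold changes between -0.44 and -0.03, and their groups overlapped.

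The main SSADH unigene, *TRINITY_DN1401_c0_g1_i1-S1A* (2483 bases), has an NR hit named as an NADP+-linked succinate semialdehyde dehydrogenase. It stood at 67.9, 54.11 and 63.87 FPKM in control replicates 1, 2 and 3. In taurine replicates 1, 2 and 3 it stood at 81.7, 76.5 and 77.54 FPKM. Again every taurine library was above every control library. The means were 61.96 ± 7.09 FPKM and 78.58 ± 2.75 FPKM (SD, n = 3 each), a ratio of 1.27. The log2 fold change was 0.34 ± 0.10 (SE) with a 95% confidence interval of 0.10 to 0.59. The unadjusted p of limma was 0.0128, the adjusted p 0.999, and the exact permutation p 0.1. Without control replicate 2 the log2 fold change was 0.25.

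The other abundant SSADH unigenes with the domain differed less between the groups. *TRINITY_DN2086_c0_g1_i1-S1A* had 31.29, 30.32 and 34.71 FPKM in the control libraries and 34.92, 34.11 and 35.44 FPKM in the taurine libraries, a log2 fold change of 0.12 ± 0.08 (SE) with a 95% confidence interval of -0.08 to 0.31. *TRINITY_DN1991_c0_g3_i2-S1A* had 12.41, 9.25 and 8.41 FPKM in the control libraries and 11.72, 10.23 and 11.42 FPKM in the taurine libraries, with a log2 fold change of 0.15 ± 0.16 (SE). Both unigenes had overlapping groups. The remaining 4 unigenes with the aldehyde dehydrogenase domain had means of 0.542 to 1.91 FPKM. Of these, *TRINITY_DN11290_c0_g1_i1-S1A* and *TRINITY_DN10251_c0_g1_i1-S2A* are short pieces that share an NR hit. Their sum was 0.98, 0.82 and 0.36 FPKM in the control libraries and 2.47, 2.83 and 1.06 FPKM in the taurine libraries, which did not overlap. At their length this sum rests on few fragments, from 0 to 6 estimated per unigene and library.

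Of glutamate decarboxylase, 5 unigenes with the domain had a mean of at least 10 FPKM, against 2 of GABA transaminase and 3 of SSADH. Its main unigene differed by less than the spread between libraries. *TRINITY_DN166_c0_g1_i3-S2A* (2961 bases) had 54.16, 41.43 and 43.09 FPKM in the control libraries and 38.14, 42.4 and 41.85 FPKM in the taurine libraries. Control replicate 1 was the high library, and the groups overlapped. The log2 fold change was -0.17 ± 0.12 (SE) with a 95% confidence interval of -0.46 to 0.12. Its isoform *TRINITY_DN166_c0_g1_i1-S2A* (3077 bases) had 11.78, 32.93 and 10.64 FPKM in the control libraries and 7.3, 9.68 and 8.27 FPKM in the taurine libraries. All taurine libraries were below all control libraries, with control replicate 2 far above the rest. The log2 fold change was -0.87 ± 0.41 (SE, unadjusted p of limma 0.0755, adjusted p 0.999), and -0.38 without control replicate 2.

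These isoforms and *TRINITY_DN376_c0_g1_i1-S1A* have the same best protein hit. Summed over these 3 unigenes the level was 71.36, 84.51 and 58.67 FPKM in the control libraries and 52.18, 57.68 and 54.7 FPKM in the taurine libraries. The groups did not overlap, and the gap between the highest taurine and the lowest control library was smaller than the spread among the control libraries. With the isoforms of the assembled gene *DN166_c0_g1* summed before the fit, the log2 fold change was -0.38 with an unadjusted p of 0.0265 and an adjusted p of 0.999.

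The other glutamate decarboxylase unigenes moved with control replicate 2. *TRINITY_DN1183_c0_g1_i1-C2A* reached 47.71 FPKM in control replicate 2. It had 4.03 and 6.4 FPKM in control replicates 1 and 3 and 8.04, 4.95 and 8.34 FPKM in the taurine libraries. Its log2 fold change was -0.62 ± 0.83 (SE) with all libraries and 0.38 without control replicate 2, so its direction turned. *TRINITY_DN9254_c0_g1_i1-S1A* showed the opposite pattern, with 26.95, 13.41 and 26.5 FPKM in the control libraries and 25.39, 26.41 and 24.71 FPKM in the taurine libraries. Its log2 fold change was 0.25 ± 0.26 (SE) with all libraries and -0.07 without control replicate 2. *TRINITY_DN6777_c0_g1_i1-C1A* varied little, with 14.71, 11.58 and 14.83 FPKM in the control libraries and 14.86, 15.51 and 13.47 FPKM in the taurine libraries (log2 fold change 0.09 ± 0.13, SE, and -0.02 without control replicate 2). The 4 glutamate decarboxylase members below 10 FPKM had log2 fold changes between -0.33 and -0.06. Of the 9 members of this enzyme, 5 were highest in control replicate 2 and 6 changed the sign of their log2 fold change without it.

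**Figure D2:**
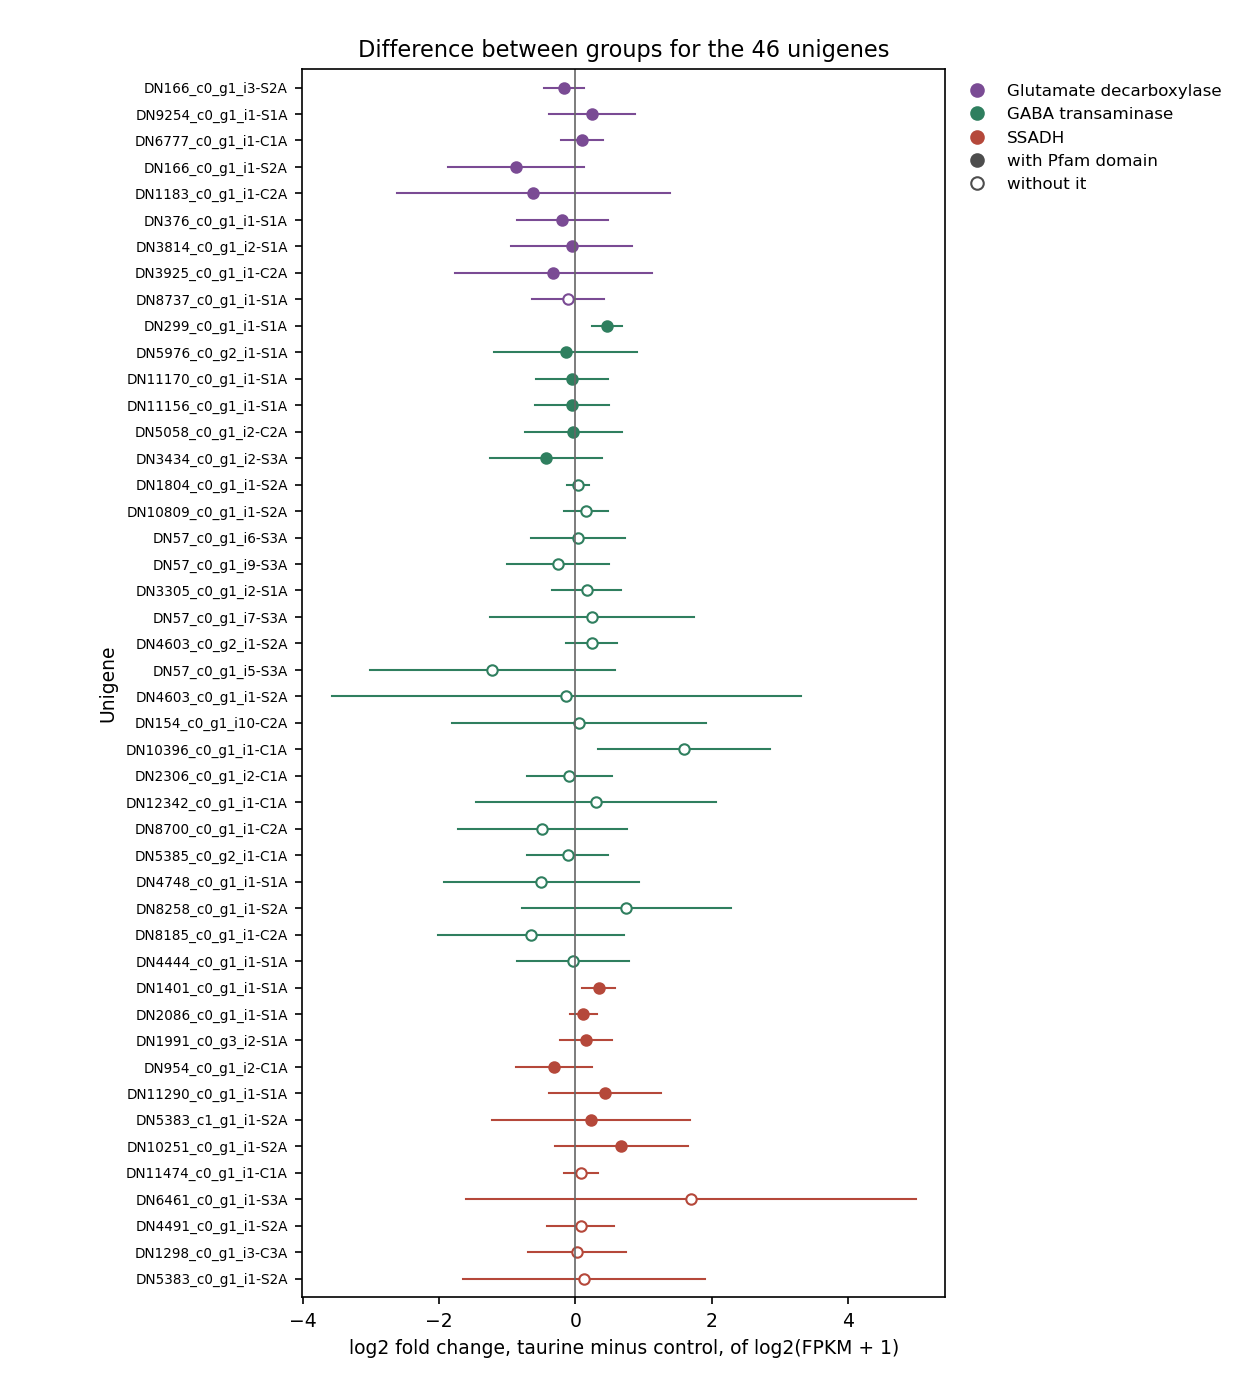
Log2 fold change (taurine minus control, of log2(FPKM + 1)) of the 46 members as points, with 95% confidence intervals from limma as lines. Members are grouped by enzyme, those with its Pfam domain filled, and ordered by mean level within each group. The intervals of *DN299_c0_g1_i1-S1A* (0.24 to 0.69), *DN1401_c0_g1_i1-S1A* (0.10 to 0.59) and *DN10396_c0_g1_i1-C1A* (0.33 to 2.85) do not include 0 and all others do.

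Because several unigenes can stand for the same protein, FPKM was also summed over each enzyme in each library. The glutamate decarboxylase sum was 121.39, 168.63 and 112.17 FPKM in the control libraries and 105.77, 109.77 and 106.57 FPKM in the taurine libraries. The taurine libraries were lower without overlap, and control replicate 2 was the highest library. On the log2 scale the difference was -0.30, and -0.12 without control replicate 2. Nearly the whole of this sum carried the domain, and with the 8 domain-bearing unigenes alone the log2 difference was again -0.30.

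The GABA transaminase sum over the 6 unigenes with the domain was 160.18, 157.98 and 152.31 FPKM in the control libraries and 215.85, 188.51 and 212.53 FPKM in the taurine libraries. The groups did not overlap, with means of 156.8 ± 4.06 FPKM and 205.6 ± 14.9 FPKM (SD, n = 3 each), a ratio of 1.31. Most of this sum is the main unigene, so it largely repeats that result. Of the 6 unigenes, 1 had a positive log2 fold change and 5 a negative one (median -0.05). Sums over members with the domain were added after seeing the data. The 19 unigenes without the domain together reached 256.3 ± 23.0 FPKM in the control libraries and 260.6 ± 6.60 FPKM in the taurine libraries, and overlapped. Over all 25 unigenes with the KEGG name the sum was 413.1 ± 23.4 FPKM and 466.3 ± 10.1 FPKM, a ratio of 1.13. On the log2 scale the difference was 0.39 with the domain and 0.18 with the KEGG name alone, and in the latter the groups overlapped once each library was rescaled to TPM.

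The SSADH sum over the 7 unigenes with the domain was 116.55, 96.08 and 109.7 FPKM in the control libraries and 132.56, 127.7 and 126.87 FPKM in the taurine libraries. All taurine libraries were higher, with a ratio of the means of 1.2 and a log2 difference of 0.27. Over all 12 unigenes with the KEGG name the means were 159.7 ± 11.3 FPKM and 195.3 ± 13.7 FPKM (SD, n = 3 each), a ratio of 1.22. The highest value there, 210.76 FPKM in taurine replicate 3, held 32.95 FPKM of *TRINITY_DN6461_c0_g1_i1-S3A*, a piece of 210 bases that was at 0 in the other 5 libraries. The exact permutation test cannot go below p = 0.1 for any of these sums, and no p is given for them because the unigenes were put together with earlier results known.

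**Figure D3:**
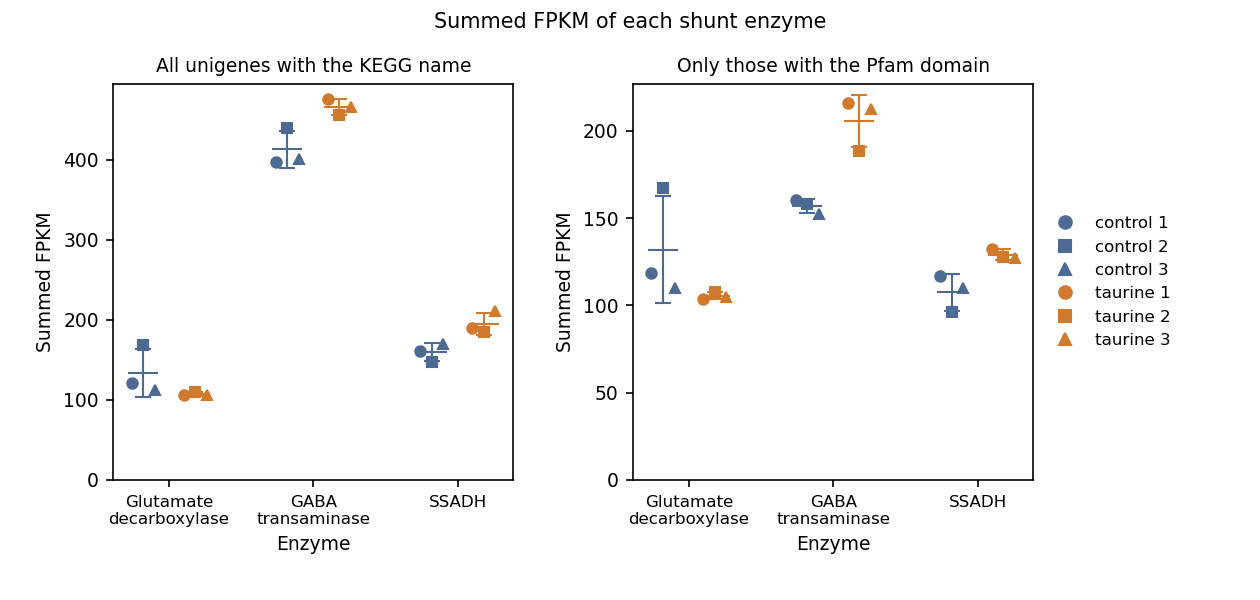
Summed FPKM of each enzyme in each library (points; blue, control; orange, taurine; marker shape, replicate number), with the mean and SD of each group of 3 libraries, over all members with the KEGG name (left) and over those with the Pfam domain (right). The axes start at 0. In the right panel the control libraries of GABA transaminase lie between 152.31 and 160.18 FPKM and the taurine libraries between 188.51 and 215.85 FPKM.

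Ratios between the enzymes within a library do not depend on how that library was scaled. With the domain-bearing unigenes, the ratio of GABA transaminase to glutamate decarboxylase was 1.35, 0.946 and 1.38 in the control libraries and 2.08, 1.75 and 2.03 in the taurine libraries. The groups did not overlap, and control replicate 2 had the lowest ratio. With all unigenes of the KEGG name the ratio was 3.28, 2.61 and 3.58 in the control libraries and 4.50, 4.15 and 4.38 in the taurine libraries, a log2 difference of 0.47 and of 0.34 without control replicate 2. Between the main unigenes of the same enzymes the ratio was 2.70, 3.06 and 3.23 in the control libraries and 5.21, 4.09 and 4.70 in the taurine libraries, again without overlap. The ratio of SSADH to GABA transaminase with the domain-bearing unigenes was 0.728, 0.608 and 0.720 in the control libraries and 0.614, 0.677 and 0.597 in the taurine libraries, which overlapped.

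**Figure D4:**
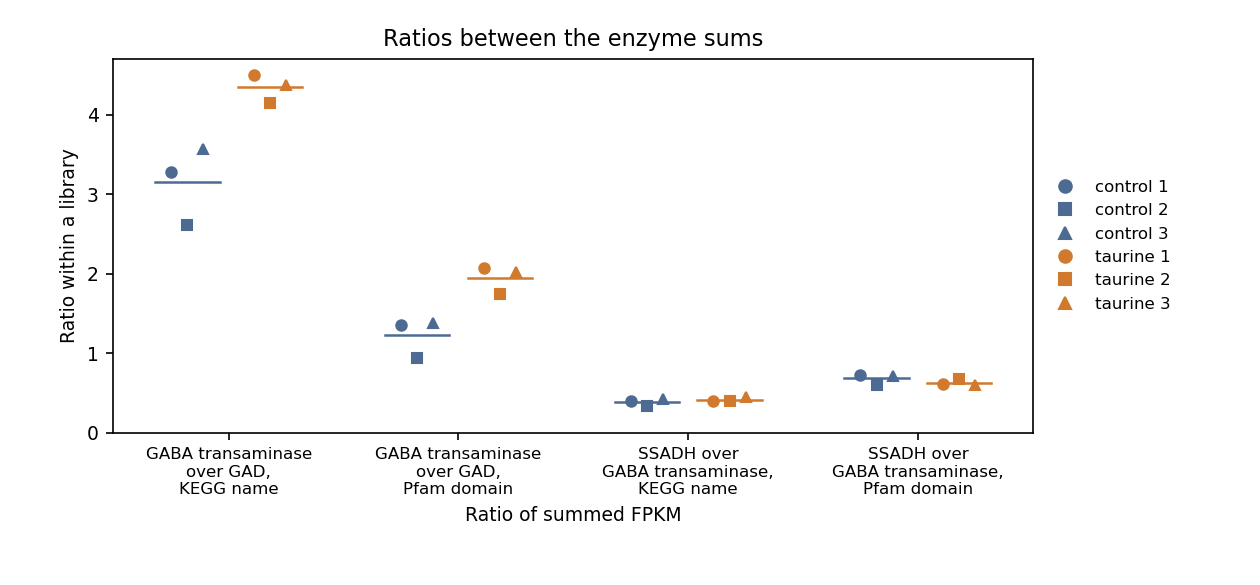
Ratio of summed FPKM between enzymes within each library (points; blue, control; orange, taurine; marker shape, replicate number), with a line for the mean of each group of 3 libraries and an axis that starts at 0. The GABA transaminase to glutamate decarboxylase ratio (GAD on the axis) separates the groups under the KEGG name and with the domain, while the SSADH to GABA transaminase ratio overlaps in both.

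Among the members without the domain, the abundant ones showed little difference between the groups. *TRINITY_DN1804_c0_g1_i1-S2A*, named as GABA transaminase but with a domain of unknown function (DUF5684), had 78.55, 82.14 and 80.24 FPKM in the control libraries and 86.17, 79.02 and 82.24 FPKM in the taurine libraries (log2 fold change 0.04 ± 0.07, SE). *TRINITY_DN10809_c0_g1_i1-S2A*, with an NAD(P)H-binding domain, had 74.88, 55.15 and 76.32 FPKM in the control libraries and 78.4, 74.42 and 74.19 FPKM in the taurine libraries. Control replicate 2 was its low library, and the log2 fold change of 0.15 with all libraries was 0.00 without it. *TRINITY_DN11474_c0_g1_i1-C1A*, named as SSADH but with an NR hit to a negative regulator of the eIF2 kinase Gcn2p, had 40.24, 45.81 and 51.27 FPKM in the control libraries and 50.56, 48.26 and 46.1 FPKM in the taurine libraries. In yeast this kinase senses the lack of amino acids.

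The assembled gene *DN57_c0_g1* gave 4 isoforms with the GABA transaminase name, 3 of them with a terminase domain. Its isoform *TRINITY_DN57_c0_g1_i6-S3A* had 35.37, 72.04 and 33.99 FPKM in the control libraries and 41.7, 49.53 and 45.8 FPKM in the taurine libraries. Control replicate 2 was again the high library, and without it the log2 fold change moved from 0.04 to 0.38. *TRINITY_DN57_c0_g1_i9-S3A* had 17.57, 23.82 and 15.24 FPKM in the control libraries and 23.17, 9.91 and 15.53 FPKM in the taurine libraries (log2 fold change -0.26 ± 0.31, SE). Over the 5 unigenes with the same protein hit the sum was 59.47, 121.04 and 60.55 FPKM in the control libraries and 72.73, 73.92 and 74.33 FPKM in the taurine libraries. The taurine mean was the lower (73.7 ± 0.831 FPKM against 80.4 ± 35.2 FPKM, SD, n = 3 each), but only through control replicate 2, since every taurine library was above the other 2 control libraries.

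The remaining member with an unadjusted p under 0.05 was *TRINITY_DN10396_c0_g1_i1-C1A*, a piece of 276 bases without a domain. It had 1.98, 0 and 0 FPKM in the control libraries and 2.56, 5.6 and 2.46 FPKM in the taurine libraries. The fitted log2 fold change was 1.59 ± 0.52 (SE), with an unadjusted p of limma of 0.021 and an adjusted p of 0.999. The size depends on the pseudocount, since 2 control libraries were at 0, and it was 3.62 with a pseudocount of 0.1. The other 14 members below 10 FPKM with the GABA transaminase name and without its domain had means of 0.372 to 7.64 FPKM, and their groups overlapped.

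The search for enzymes of glutamate supply took up 21 unigenes besides 5 folylpolyglutamate synthases. Of the 21, 18 were glutamine synthetases, which use glutamate and do not supply it. The rest were 1 glutamate dehydrogenase, 1 NADP+-dependent glutamate dehydrogenase and 1 NADH-dependent glutamate synthase. Of all 26 unigenes, 0 had an adjusted p under 0.05 or an unadjusted p under 0.05 with limma. Over all tested unigenes these shares were 0.0393% for the adjusted p, and 1.63% higher and 1.03% lower for the unadjusted p, so a count of 0 in lists of this size does not set them apart from other unigenes. The most abundant was a glutamine synthetase, *TRINITY_DN1208_c0_g2_i1-S2A*, with 484.1 ± 57.7 FPKM in the control and 467.2 ± 17.9 FPKM in the taurine libraries (SD, n = 3 each). The NADP+-dependent glutamate dehydrogenase *TRINITY_DN9824_c0_g1_i1-C2A*, which makes glutamate from ammonium and 2-oxoglutarate, had 1092.51 FPKM in control replicate 2 and 205.37 to 316.11 FPKM in the other 5 libraries. It was chosen after its values were seen, and its level moved with that of *TRINITY_DN1183_c0_g1_i1-C2A* in control replicate 2.

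For the steps of the TCA cycle that the shunt goes around, the search words took 20 unigenes of the 2-oxoglutarate dehydrogenase complex and succinyl-CoA synthetase and 12 of other orthologs, among them 9 homoserine O-acetyltransferases. None of the 32 passed an adjusted p of 0.05 with limma, and 1 had an unadjusted p under 0.05, a homoserine O-acetyltransferase. Over the 20 unigenes of these enzymes, summed FPKM was 2282.41, 2062.84 and 2174.23 in the control libraries and 2200.28, 2190.91 and 2194.84 in the taurine libraries, which overlapped. With the 12 other unigenes included the means were 2317 ± 56.0 and 2290 ± 7.87 (SD, n = 3 each), where the homoserine O-acetyltransferases reached 238.1 FPKM in control replicate 2 and 85.89 to 94.76 FPKM in the other 5 libraries. The beta subunit of succinyl-CoA synthetase *TRINITY_DN1617_c0_g2_i1-C1A* was the most abundant, with 605.8 ± 31.2 FPKM and 614.7 ± 17.6 FPKM. Succinate dehydrogenase, which takes up the succinate that the shunt makes, had 10 unigenes, its assembly factors included, and a sum of 1327 ± 132 FPKM and 1335 ± 29.8 FPKM. None of the 10 had an unadjusted or adjusted p under 0.05, and the most abundant was the membrane anchor *TRINITY_DN1132_c0_g2_i1-S2A* with 433.7 ± 49.3 FPKM and 428.0 ± 17.1 FPKM.

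The searches by name for relatives of the shunt enzymes gave no call, at the same shares over all tested unigenes. Not all unigenes that they took up belong to the families of these enzymes. Of 33 other aldehyde dehydrogenases, 0 had an unadjusted or adjusted p under 0.05 with limma, and their sum was 1145 ± 100.3 FPKM in the control and 1139 ± 94.4 FPKM in the taurine libraries (SD, n = 3 each). They included 1 aspartate-semialdehyde dehydrogenase, of another family, with 298.92 FPKM in control replicate 2 and 146.99 to 174.92 FPKM in the rest. The most abundant of them, *TRINITY_DN7630_c0_g1_i1-S2A*, had 474.1 ± 74.7 FPKM and 506.5 ± 88.3 FPKM. Of 8 other pyridoxal-dependent decarboxylases and lyases 0 had an unadjusted or adjusted p under 0.05 and 1 was higher with taurine without overlap. Ornithine decarboxylase *TRINITY_DN92_c0_g1_i1-S3A*, of another family than glutamate decarboxylase and the first enzyme of polyamine synthesis, led them with 86.6 ± 16.4 FPKM and 88.8 ± 1.95 FPKM. Their 3 aromatic amino acid decarboxylases summed to 23.71 to 24.18 FPKM in the control and 26.8 to 28.38 FPKM in the taurine libraries, without overlap. The sums of ornithine decarboxylase and of sphinganine-1-phosphate aldolase overlapped. The search for omega transaminases took up 103 unigenes, 98 of them through a pathway name or another ortholog, and only 5 were ornithine or acetylornithine transaminases. Among the 103 the same aldehyde dehydrogenase was the most abundant, and 0 had an unadjusted or adjusted p under 0.05. Groups without overlap were found for 4 of the 103 in the higher and 2 in the lower direction, where all tested unigenes gave 3.78% and 2.62%. No KEGG entry named a GABA permease. The NR hits named 3 unigenes as a GABA-specific high-affinity permease, a search added after seeing the data, while KEGG named the same 3 as a choline transport protein. Their summed level was 2.72 ± 0.621 FPKM and 2.55 ± 0.805 FPKM (SD, n = 3 each). Of the 3, 1 was lower with taurine without overlap, against 2.62% of all tested unigenes.

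Genes of spore formation were looked for because mycelial cultures can hold conidiating structures. The 7 unigenes with an NR hit to the conidiation regulators BrlA and WetA (none had one to AbaA or a hydrophobin) summed to 3.11 to 8.21 FPKM in the control and 2.64 to 8.72 FPKM in the taurine libraries, with no unadjusted or adjusted p under 0.05 in limma. The most abundant of them, *TRINITY_DN4368_c0_g5_i1-C1A*, was at 0 in 5 libraries. Their part in the values above was not tested.

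The median log2 fold change over all tested unigenes was 0.022, and 0.030 without control replicate 2. It was 0.034 for the search of bypassed TCA steps and 0.026 for the 103 unigenes of the transaminase search. For other lists the direction turned without control replicate 2. The median went from -0.0086 to 0.029 for the glutamate search, mostly glutamine synthetases, and from 0.0081 to -0.060 for succinate dehydrogenase. It went from -0.020 to 0.052 for the search for other aldehyde dehydrogenases and from 0.12 to -0.011 for the other pyridoxal-dependent enzymes. It was -0.39 for the conidiation list and -0.027 for it without control replicate 2. Among the shunt members it was -0.17 for glutamate decarboxylase, -0.04 for GABA transaminase and 0.14 for SSADH. A positive log2 fold change was found for 11 of the 12 SSADH unigenes, against 11054 of the 20381 tested. The 12 unigenes stand for only 8 different best hits in NR. Of the 12, 4 were at 0 in at least 1 library and 5 lack the domain, so nothing is read from the count.

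Outside the shunt, the unigenes whose pattern over the 6 libraries was most like that of each main unigene were taken from 8486 annotated unigenes of at least 500 bases and 1 FPKM. For glutamate decarboxylase *TRINITY_DN166_c0_g1_i3-S2A* they were a dienoyl-CoA isomerase (*TRINITY_DN8897_c0_g1_i1-C3A*, Pearson r = 0.995), a glycerol kinase (*TRINITY_DN1169_c0_g1_i2-S3A*, r = 0.982) and a mitochondrial pyruvate carrier (*TRINITY_DN3361_c0_g2_i1-S3A*, r = 0.976). The main GABA transaminase was most like a poly(ADP-ribose) polymerase (*TRINITY_DN28_c0_g1_i1-C2A*, r = 0.987), subunit G of the V-type proton ATPase (*TRINITY_DN1007_c0_g1_i2-C3A*, r = 0.983) and an uncharacterized protein (*TRINITY_DN8190_c0_g1_i1-C3A*, r = 0.977). The main SSADH was most like subunit 1 of the COP9 signalosome (*TRINITY_DN3591_c0_g1_i1-S1A*, r = 0.993), a histone H2A (*TRINITY_DN690_c0_g1_i2-S1A*, r = 0.992) and subunit 2 of the anaphase-promoting complex (*TRINITY_DN2296_c0_g1_i2-S1A*, r = 0.989). These values describe the 6 libraries, which share the group difference and control replicate 2, and with so many unigenes compared over 6 points high values are found for any pattern.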

How the data were processed

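Mycelial RNA of *M. purpureus* was sequenced on DNBSEQ in 3 control and 3 taurine libraries and assembled de novo by the authors, who deposited FPKM per unigene and library with KEGG, NR and Pfam annotation. The submitters' processing notes name Bowtie2 2.2.5, RSEM 1.2.8 and DESeq. The deposited log2 fold changes, p-values and FDR scores of the authors' own comparisons and their group means of FPKM were not used. No per-sample column was left out.

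The 20381 unigenes whose mean FPKM reached 0.1 were fitted on the scale log2(FPKM + 1) in limma 3.58.1 (R 4.3.3, lmFit, then eBayes with a trend in the prior). The tests were two-sided, and p was adjusted over all 20381 by Benjamini-Hochberg. The pseudocount understates changes of low unigenes. Exact permutation tests over the 6 libraries, sums and correlations were run with numpy 2.4.6 and pandas 2.3.3 under Python 3.11.15. The permutation tests of the alternatives were run in R. Depth was taken from the spacing of low FPKM values, of which 59.6% to 64.8% lay within 0.1 of a whole fragment, so whole reads were not recovered. The limma fit was also run on simulated data, with changes larger than any fitted here for a member. That run therefore does not bear on the differences described above. The members and lists were chosen with earlier results of these data known. Members with a mean of at least 10 FPKM or an unadjusted p under 0.05 are named with their values, together with the most abundant member of each list and, for likeness, the 3 unigenes with the highest Pearson r. Same-numbered libraries did not deviate together (correlations -0.022, -0.034 and -0.009), so the numbers were not used as a block. Alternatives were pseudocounts of 0.1 and 0.01, no filter, a minimum mean of 1 FPKM, TPM, quantile normalization, sample quality weights, summed isoforms, a replicate block, leaving out each library and, added after seeing the data, voom on estimated fragments and sums over members with the domain. The table of RefSeq genes matched 0 members by name or accession, and no sequences are shown.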

Additional observations from a re-analysis of the deposited data

How the results depend on the processing

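The 3 enzyme sums kept their direction under a minimum mean of 1 FPKM, TPM, quantile normalization, quality weights, the domain requirement and each left-out library. Dropping the filter and using the replicate block leave these differences unchanged by construction, so they are no check of the direction. The pseudocounts are small beside sums of this size and hardly move them. The GABA transaminase to glutamate decarboxylase ratio was recomputed with a pseudocount of 0.1, the domain requirement and each left-out library, and kept its direction. Among the members, 0 passed an adjusted p of 0.05 under any alternative run across all unigenes with limma. With sample quality weights 6 members in place of 3 had an unadjusted p under 0.05, and between 2 and 4 did when 1 library was left out. The replicate block gave 4 such members and changed no call. Over all tested unigenes 8 were called, 15 with sample quality weights, 3 to 16 when 1 library was left out, and 0 with a pseudocount of 0.01, with the replicate block and with voom. The SSADH to GABA transaminase ratio turned from 0.11 to -0.12 on the log2 scale with the Pfam domain required. When 1 library was left out, the median log2 fold change of the members ran from -0.021 to 0.083, that of other aldehyde dehydrogenases from -0.049 to 0.052 and that of the conidiation list from -0.42 to -0.027.

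Sample quality weights turned the log2 fold change of 6 named members, to 0.026 for *TRINITY_DN57_c0_g1_i9-S3A*, -0.018 for *TRINITY_DN6777_c0_g1_i1-C1A*, 0.10 for *TRINITY_DN1183_c0_g1_i1-C2A*, -0.040 for *TRINITY_DN11474_c0_g1_i1-C1A*, 0.45 for *TRINITY_DN5976_c0_g2_i1-S1A* and -0.022 for *TRINITY_DN9254_c0_g1_i1-S1A*. With isoforms summed, the assembled gene *DN57_c0_g1* had a log2 fold change of -0.073. That is a value of the gene, opposite in sign to that of its isoform *TRINITY_DN57_c0_g1_i6-S3A* alone. When 1 library was left out, the range was -0.0056 to 0.17 for *TRINITY_DN11474_c0_g1_i1-C1A*, -0.15 to 0.38 for *TRINITY_DN57_c0_g1_i6-S3A*, -0.017 to 0.15 for *TRINITY_DN6777_c0_g1_i1-C1A*, -1.26 to 0.38 for *TRINITY_DN1183_c0_g1_i1-C2A*, -0.49 to 0.36 for *TRINITY_DN5976_c0_g2_i1-S1A*, -0.065 to 0.41 for *TRINITY_DN9254_c0_g1_i1-S1A* and -0.54 to 0.031 for *TRINITY_DN57_c0_g1_i9-S3A*. The cause was not tested. Depth limits the short and low members most, where 1 fragment moves FPKM in large steps. Groups of 3 libraries are too small for a test of single outlying values.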
